A study of Mus musculus with 53 samples.

Results

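Expression of 9 mouse genes that write, erase or read DNA methylation was followed in the cortex at embryonic stage E16.5. They are the maintenance genes Dnmt1 and Uhrf1, the de novo methyltransferase genes Dnmt3a and Dnmt3b, the eraser genes Tet1, Tet2 and Tet3, and the methyl-CpG-binding domain genes Mbd1 and Mbd3. These 9 genes were chosen by name, not by level, and all 9 were found among the 37991 gene IDs of the deposited column, 32919 of which matched a GENCODE M21 symbol. The series holds 53 RNA-seq libraries in 19 groups, made to test how neuronal activity acts through histone turnover on mRNA in cultured neurons, astrocytes and brain tissue. The values described here are those of embryonic cortical tissue of C57bl/6 mice at E16.5, labelled as a control without stimulation. Its 3 libraries were deposited by the authors as 1 averaged RPKM value for each gene (reads scaled by gene length and by library size). The other 50 libraries are not analysed here. With 1 mean column there is no SD, no test between conditions and no measure of which genes vary alike across samples.

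Methyl groups on cytosine in CpG sites are placed on both strands by DNMT3A and DNMT3B and copied to the new strand after replication by DNMT1. UHRF1 binds the hemimethylated site behind the fork and recruits DNMT1 to it. TET1, TET2 and TET3 oxidise methylcytosine to hydroxymethylcytosine and beyond, from which base excision repair restores cytosine. Proteins with a methyl-CpG-binding domain read the mark, and in developing brain this system accompanies the passage from dividing precursors to neurons, which carry much hydroxymethylcytosine.

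Dnmt1, Uhrf1, Dnmt3a and Dnmt3b each have at least 1 CpG-rich start site, and several have more than 1 annotated start. Not every start is CpG-rich. The sequences below, read 5′ to 3′ on the strand of the gene, run from 250 bases before to 50 after a RefSeq start on GRCm38.p6, with each CpG site in capitals. They are shown because the deposited value of each gene would pool transcripts from whichever starts are in use. For Dnmt1 and Dnmt3a the annotated starts differ widely in CpG content. Which starts were used in the cortex was not tested.
Dnmt1, the upstream start, chr9:20959839-20960138, minus strand: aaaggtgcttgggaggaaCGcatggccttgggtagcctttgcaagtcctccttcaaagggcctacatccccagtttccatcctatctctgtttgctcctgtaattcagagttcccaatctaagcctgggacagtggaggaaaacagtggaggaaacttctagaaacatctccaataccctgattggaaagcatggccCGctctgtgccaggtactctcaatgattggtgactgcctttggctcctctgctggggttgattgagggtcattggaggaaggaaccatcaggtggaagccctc
Dnmt1, the downstream start, chr9:20952574-20952873, minus strand: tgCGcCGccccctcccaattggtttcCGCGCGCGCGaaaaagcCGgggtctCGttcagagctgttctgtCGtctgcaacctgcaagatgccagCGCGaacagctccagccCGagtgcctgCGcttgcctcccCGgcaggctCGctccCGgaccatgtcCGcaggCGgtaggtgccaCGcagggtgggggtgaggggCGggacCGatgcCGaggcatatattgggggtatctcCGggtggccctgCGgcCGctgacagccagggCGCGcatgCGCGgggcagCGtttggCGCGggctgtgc
Uhrf1, the downstream start, chr17:56304063-56304362, plus strand: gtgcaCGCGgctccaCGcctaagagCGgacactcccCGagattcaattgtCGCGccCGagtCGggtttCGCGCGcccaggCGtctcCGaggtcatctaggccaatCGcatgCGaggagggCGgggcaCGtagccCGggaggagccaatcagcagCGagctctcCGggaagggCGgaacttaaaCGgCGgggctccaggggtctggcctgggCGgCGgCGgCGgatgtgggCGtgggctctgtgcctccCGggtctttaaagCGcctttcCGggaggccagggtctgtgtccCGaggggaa
Dnmt3a, the upstream start, chr12:3806730-3807029, plus strand: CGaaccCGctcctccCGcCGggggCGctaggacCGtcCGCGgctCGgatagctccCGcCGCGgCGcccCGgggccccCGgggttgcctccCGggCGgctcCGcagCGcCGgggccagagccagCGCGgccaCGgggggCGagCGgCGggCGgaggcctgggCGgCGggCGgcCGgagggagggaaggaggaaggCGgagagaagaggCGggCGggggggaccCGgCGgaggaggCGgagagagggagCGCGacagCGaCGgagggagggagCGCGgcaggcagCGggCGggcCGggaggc
Dnmt3a, the internal start, chr12:3891494-3891793, plus strand: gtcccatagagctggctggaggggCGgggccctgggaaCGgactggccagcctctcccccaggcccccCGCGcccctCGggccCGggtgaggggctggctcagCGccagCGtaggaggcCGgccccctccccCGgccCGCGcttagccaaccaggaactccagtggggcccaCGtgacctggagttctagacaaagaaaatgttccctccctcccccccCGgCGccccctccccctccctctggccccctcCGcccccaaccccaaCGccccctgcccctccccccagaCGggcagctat
Dnmt3b, its 1 start, chr2:153649199-153649498, plus strand: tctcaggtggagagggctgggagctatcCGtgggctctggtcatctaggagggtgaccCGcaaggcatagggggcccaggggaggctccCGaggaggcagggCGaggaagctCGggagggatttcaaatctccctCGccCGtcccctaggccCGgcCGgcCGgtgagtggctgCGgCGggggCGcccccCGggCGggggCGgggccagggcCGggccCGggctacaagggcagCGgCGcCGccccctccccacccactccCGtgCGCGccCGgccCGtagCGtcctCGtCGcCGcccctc

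The upstream Dnmt1 window held 2 CpG sites, and the downstream one, 7.27 kb further on, held 33. Another Dnmt1 window, between them, held 12. In Dnmt3a the upstream window held 46 CpG sites, a window overlapping it 47, and the internal one, 84.8 kb downstream, 18. Dnmt3a is known to make a short form of the enzyme from an internal start. The Dnmt3b window held 30 CpG sites. Uhrf1 had 12 in its upstream and 33 in its downstream window. Among the genes whose sequence is not printed, the Tet2 window held 57 sites, the Tet3 and Mbd3 windows 22 each and the Tet1 window 17. Of all 32851 windows of 300 bases in the RefSeq table the median was 7 sites, with quartiles of 3 and 20. The Tet2 window was thus in the upper 0.152% of all windows, while 23.3% of all windows held no more sites than the upstream Dnmt1 window. The highest level, that of Mbd3, and the lowest, that of Dnmt3b, both went with windows above the upper quartile of CpG sites. At least as many sites were held by 23.1% and 11.7% of all windows.

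Windows were also searched on both strands for the E2F motif, spelled TTTCCCGC, TTTCGCGC, TTTGCCGC or TTTGGCGC, where matches on opposite strands may overlap. E2F factors drive genes of DNA replication. The downstream Dnmt1 window held a match at positions 32 to 39, as GCGCGAAA, and another at positions 284 to 291, as TTTGGCGC, counted from its 5′ end. The downstream Uhrf1 window held TTTCGCGC at positions 66 to 73. These were the 2 windows with a match among 13 windows of 8 of the genes, against 2.26% of all windows. A match describes the letters only.

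**Figure D1:**
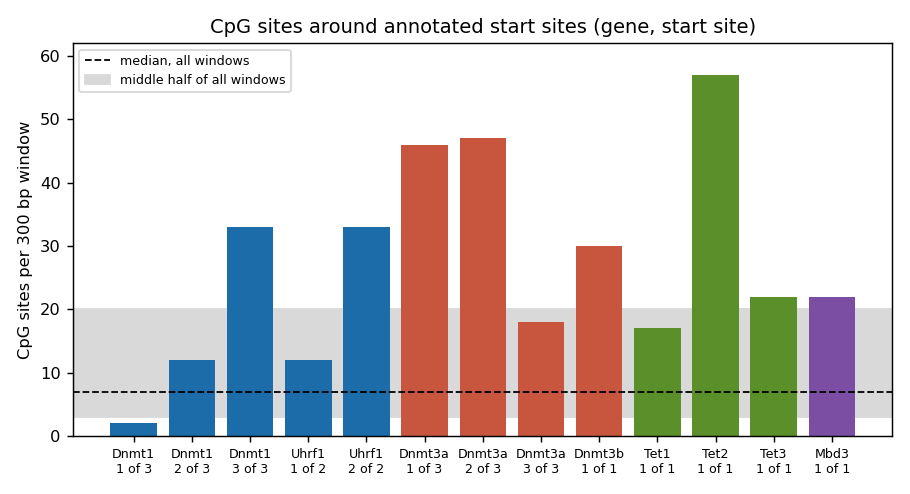
CpG sites in each 300-base window around an annotated start, for 8 of the genes, numbered from the upstream start. The dashed line is the median of all windows (7) and the band spans their quartiles (3 to 20). Dnmt1 runs from 2 sites at its upstream start to 33 at its downstream start.

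The deposited values are per kilobase of the whole gene with its introns. The worth of 1 read was worked out with the whole span. In multi-exon genes left out of that step, 319 of 368 low values (86.7%) fell on that worth, where an even spread gives 4.77%. With exon length 19 of 345 (5.51%) fell on it. No worth was sought with exon length, so this last share is not a like comparison. The same steps gave libraries of 51.3, 64.8 and 71.6 M reads, or 187.7 M in all. Levels are therefore given in 3 ways, as deposited RPKM, as RPM (reads scaled by library size with no length) and as RPM per kilobase of exon, the last of which takes all counted reads to lie in exons. Intervals are 95% exact Poisson intervals on the estimated reads and cover counting error only.

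The tissue label was checked against marker genes. Of the radial glia genes Fabp7 was highest at 102 RPKM and Pax6 lowest at 1.57 RPKM. Among neuronal genes Neurod6 was highest at 194 RPKM, and among intermediate progenitor genes Neurog2 at 29.7 and Eomes at 15.4 RPKM. Markers of other cells were detected too. Red blood cell genes ranged from Hba-a2 at 48.3 to Hba-a1 at 53.6 RPKM, endothelial genes from Pecam1 at 0.133 to Cldn5 at 17.3 RPKM, and microglial genes from Cx3cr1 at 0.274 to C1qa at 0.942 RPKM. Per kilobase of exon Cx3cr1, at 10.2, was above C1qa, at 2.62, and Pecam1 stood at 2.05. Fibroblast genes reached at most 0.0814 RPKM (Col3a1, with Dcn lowest at 0.0223) and choroid plexus genes at most 0.0670 RPKM (Ttr, with Kl lowest at 0.00104). How much of each value came from which cells was not tested. In bulk tissue fewer cells of a type and less RNA per cell cannot be told apart.

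All 9 genes were detected, as were 17140 of 20214 protein-coding genes. The 9 covered a 125-fold range of RPKM from Mbd3 to Dnmt3b. Mbd3, Dnmt1, Mbd1, Uhrf1 and Tet3 reached 1 RPKM, 5 of 9 genes, against 18.8% of all listed genes and 31.6% of protein-coding genes. The median of the 9 was 2.13 RPKM, against 0.4501 RPKM over the 17140 protein-coding genes listed above 0. Per kilobase of exon 8 of 9 reached 1, against 54.1% of protein-coding genes, and the median was 6.52 against 3.001. Dnmt3b, at 0.853, was the gene left out. Dnmt3b was lowest on every scale, and Mbd3 was highest on both scales per length.

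**Figure D2:**
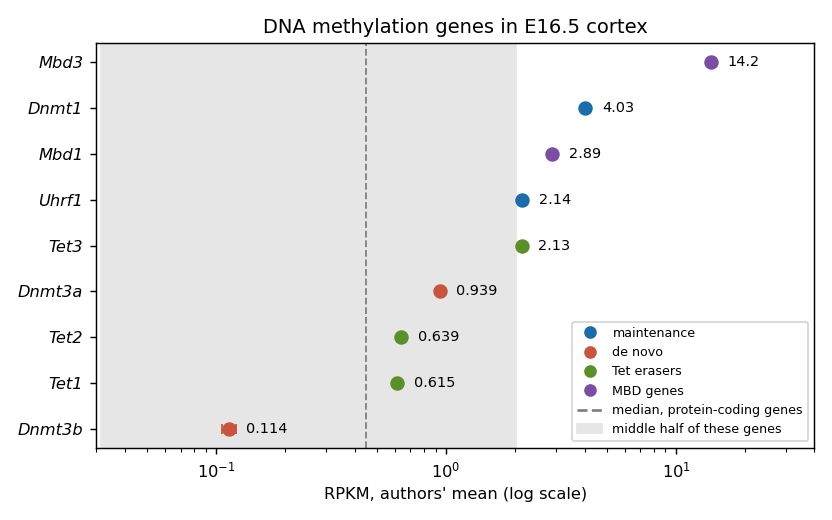
Deposited RPKM of the 9 genes on a log axis, coloured by role, with 95% Poisson intervals that are mostly narrower than the points. The dashed line is the median of protein-coding genes above 0 (0.4501 RPKM) and the band spans their quartiles (0.0316 to 2.01 RPKM). Only Dnmt3b (0.114 RPKM) lies under the median.

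Of the maintenance genes, Dnmt1 (ENSMUSG00000004099, chromosome 9), the enzyme that copies methylation to the new strand, stood at 4.03 RPKM (3.99 to 4.07). That was percentile 86.0 of protein-coding genes. An estimated 39835 reads lay behind it, 212 RPM, the most of the 9 genes, and its level was 28.8 per kilobase of exon. Uhrf1 (ENSMUSG00000001228, chromosome 17), which leads DNMT1 to hemimethylated sites, stood at 2.14 RPKM (2.097 to 2.191) from 8115 reads, percentile 76.2. Dnmt1 was 1.88-fold above Uhrf1 in RPKM (1.84 to 1.92) and 2.83-fold per kilobase of exon. Both lay within the range of the genes of dividing cells, from Tyms at 1.24 to Mcm7 at 14.8 RPKM. So did Tet3 at 2.13, Mbd1 at 2.89 and Mbd3 at 14.2 RPKM, so this range does not set the maintenance genes apart. Per kilobase of exon Dnmt1, at 28.8, was above the highest gene of that list, Mcm7 at 26.3, and Uhrf1, at 10.2, stood near its median of 9.75.

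Of the de novo enzymes, Dnmt3a (ENSMUSG00000020661, chromosome 12) was far above Dnmt3b. In mouse brain Dnmt3b is known from the early embryo and Dnmt3a from later precursors and neurons. Dnmt3a stood at 0.939 RPKM (0.926 to 0.952), percentile 61.6, with an estimated 19111 reads. Dnmt3b (ENSMUSG00000027478, chromosome 2) stood at 0.114 RPKM (0.106 to 0.122), percentile 35.1, with 817 reads, the fewest of the 9. The Dnmt3a to Dnmt3b ratio was 8.26 in RPKM (7.70 to 8.87) and 7.18 per kilobase of exon, and Dnmt3a held 95.9% of the reads of the pair. Dnmt3a was below Uhrf1, Tet3 and Mbd1 in RPKM, and also per kilobase of exon, at 6.12. Its gene spans 108 kb, of which 15.4% is exon. By reads with no length Dnmt3a was behind only Dnmt1 and Tet3, at 102 RPM. Exons of its 18 annotated transcripts add up to 16.6 kb, while its longest coding transcript has 9.69 kb. Per kilobase of that transcript Dnmt3a was at 10.5, again below Uhrf1, Tet3 and Mbd1, and 10.4-fold above Dnmt3b at 1.01. Dnmt1 was 4.29-fold above Dnmt3a in RPKM (4.22 to 4.36) but 2.08-fold by reads. Among the 3 methyltransferase genes Dnmt1 held 80.5% of the level per kilobase of exon, Dnmt3a 17.1% and Dnmt3b 2.38%. The long and short forms of Dnmt3a share 1 value here.

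Of the erasers, Tet3 (ENSMUSG00000034832, chromosome 6) was the highest of the 3 on every scale. It stood at 2.13 RPKM (2.11 to 2.15), percentile 76.1, with 38714 reads, nearly as many as Dnmt1. Tet2 (ENSMUSG00000040943, chromosome 3) stood at 0.639 RPKM (0.626 to 0.652) from 9771 reads, percentile 55.3. Tet1 (ENSMUSG00000047146, chromosome 10) stood at 0.615 RPKM (0.604 to 0.626) from 12045 reads, percentile 54.8. Tet3 was 3.47-fold above Tet1 (3.40 to 3.54) and 3.34-fold above Tet2 (3.26 to 3.41) in RPKM, and 2.98-fold and 4.003-fold per kilobase of exon. It held 62.98% of the summed RPKM of the 3 genes and 63.1% of their sum per kilobase of exon. TET1 carries a CXXC domain that binds CpG sites, as some forms of TET3 do, while TET2 can be bound by the separate protein IDAX. The IDAX gene Cxxc4, named after its value was seen, stood at 1.13 RPKM.

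The order of Tet2 and Tet1 could not be settled. Tet2 was 1.04-fold above Tet1 in RPKM (1.01 to 1.07), but 0.743 times Tet1 per kilobase of exon and 1.27 times per kilobase of the longest coding transcript. The span of Tet1 is 104 kb in GENCODE M21 and 82.9 kb in RefSeq. With the RefSeq span its reads would be 9562 and the ratio per kilobase of exon 0.936. For the other 8 genes both spans differed by less than 5%.

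Of the readers, Mbd3 (ENSMUSG00000035478, chromosome 10) was the highest of all 9 genes at 14.2 RPKM (14.01 to 14.42), percentile 96.4. Mammalian MBD3 binds methylated CpG weakly and acts as a subunit of the NuRD complex, a remodeller and histone deacetylase. An estimated 18708 reads lay behind its value, fewer than behind Dnmt1, Tet3 or Dnmt3a. The high RPKM goes with a gene of 7.01 kb, the shortest of the 9, although Mbd3 was also the highest per kilobase of exon, at 50.2. Mbd1 (ENSMUSG00000024561), which binds methylated CpG and takes part in silencing, stood at 2.89 RPKM (2.83 to 2.95) from 8200 reads, percentile 81.2. It was behind only Mbd3 and Dnmt1 in RPKM, but per kilobase of exon, at 6.52, it was also below Tet3 and Uhrf1. Exons filled 44.3% of its gene, the largest share of the 9. Mbd3 was 4.92-fold above Mbd1 in RPKM (4.80 to 5.05) and 7.70-fold per kilobase of exon.

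With reads from GENCODE spans, neighbours in the order of RPKM were parted beyond counting error in 7 of 8 steps. Uhrf1 and Tet3, at 2.14 and 2.13 RPKM, were not. Tet2 and Tet1 were barely parted, with the lower bound of Tet2 at 0.6264 and the upper bound of Tet1 at 0.6256 RPKM. With the RefSeq span Tet1 would have fewer reads and a wider interval, for which this step was not tested. Spread between animals could not be set against these steps. Steps of under 1.5-fold were Dnmt1 over Mbd1 (1.40), Mbd1 over Uhrf1 (1.35), Uhrf1 over Tet3 (1.005), Dnmt3a over Tet2 (1.47) and Tet2 over Tet1 (1.04). Of these, Mbd1 over Uhrf1, Uhrf1 over Tet3 and Tet2 over Tet1 turned round per kilobase of exon, to 0.642, 0.822 and 0.743.

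**Figure D3:**
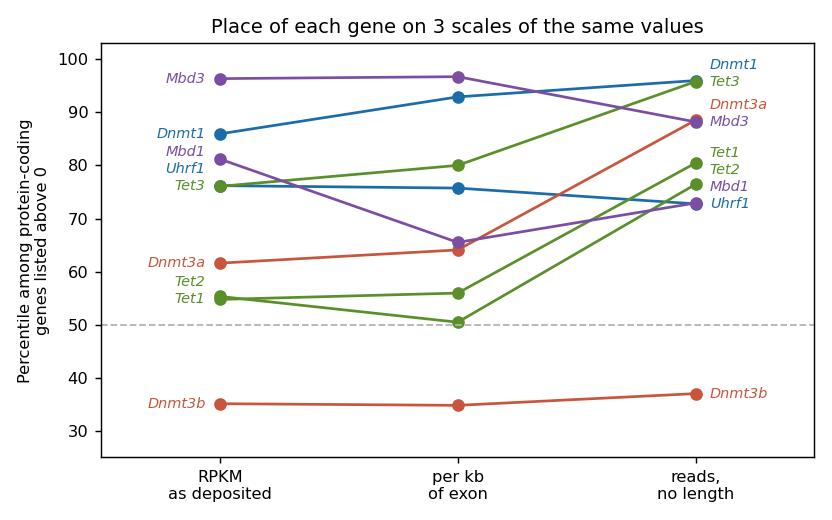
Percentile of each gene among protein-coding genes above 0 for RPKM as deposited, for RPM per kilobase of exon and for reads with no length. Dnmt3b stays between percentiles 34.8 and 37.0, while Dnmt3a goes to 88.5 and Tet3 to 95.8 by reads.

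Genes annotated across the 9 stood low where they were measured. They were the antisense genes Dnmt3aos (0.00615 RPKM) and Dnmt3bos (0.00814), B230319C09Rik opposite Tet3 (0.0352) and the small nuclear RNA gene Gm26479 within Tet1 (0.0490). Another 5 overlapping genes had no value in the column. The sources used here do not say whether counting used strand, so reads of a gene and its antisense partner cannot be told apart.

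Cofactors of methylation were led by the imprint-keeping pair Trim28 (52.6 RPKM) and Zfp57 (40.1 RPKM), whose proteins hold methylation at imprinted sites, and by the replication clamp gene Pcna (24.5 RPKM). Of 11 such genes 7 reached 1 RPKM, against 31.6% of protein-coding genes, with a median of 1.57 RPKM. Dnmt3l, the partner of the de novo enzymes in germ cells, had the value of 1 read in 1 library, and Dppa3, which shields the maternal genome of the zygote, was listed at 0. Uhrf2, the paralog of Uhrf1 and named after its value was seen, stood at 1.57 RPKM and 11.6 per kilobase of exon, beside 2.14 and 10.2 for Uhrf1.

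Partners of the Tet enzymes and of base excision repair were all listed above 0, as were 17140 of 20214 protein-coding genes. Of these 16 genes 9 reached 1 RPKM, against 31.6% of protein-coding genes, with a median of 1.28 RPKM. The highest were Ogt, whose product binds TET proteins, at 12.4 RPKM, Gadd45g, linked to demethylation, at 8.98 RPKM and the endonuclease gene Apex1 at 7.81 RPKM. Tdg, the glycosylase that removes oxidised methylcytosine, named after its value was seen, stood at 5.26 RPKM, above each Tet gene, and at 20.5 per kilobase of exon against 12.4 for Tet3. By reads with no length the order turned, with 110 RPM for Tdg and 206 RPM for Tet3.

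Of 10 other genes listed as readers of CpG sites, 7 reached 1 RPKM, with a median of 1.35 RPKM. At 2 RPKM, near the upper quartile of protein-coding genes above 0 (2.01 RPKM), there were 3. All 10 reached 1 per kilobase of exon. Over protein-coding genes the shares were 31.6% at 1 RPKM and 54.1% at 1 per kilobase of exon. Cxxc1, which binds unmethylated CpG, stood at 13.2, Mbd6 at 9.66, Zbtb33, the gene of the reader Kaiso, at 8.37 and Mbd5 at 0.116 RPKM. Binding of CpG sites by the MBD5 and MBD6 proteins was not tested. The NuRD genes had 10 of 12 at 1 RPKM and a median of 3.62 RPKM. The remodeller gene Chd3 stood at 30.7, Mta2 at 14.4, the deacetylase gene Hdac2 at 10.3 and Mta3 at 0.358 RPKM, so that Mbd3 was below 2 of these 12 genes. Per kilobase of exon Mbd3, at 50.2, was below Chd3 at 95.02 and Hdac2 at 62.9.

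In the list for supply of the methyl donor, Mat2a, which makes S-adenosylmethionine, stood at 39.2 and Shmt2 at 8.21 RPKM. Ahcyl1, an Ahcy-like gene whose part in this supply was not tested, stood at 5.82 RPKM. Bhmt was listed at 0. Of the 13 genes, 6 reached 1 RPKM, with a median of 0.575 RPKM. Per kilobase of exon 11 of the 13 reached 1, with a median of 4.20. The shares over protein-coding genes were 31.6% at 1 RPKM and 54.1% at 1 per kilobase of exon. All 7 genes around 2-oxoglutarate, the cosubstrate of TET enzymes, reached 1 RPKM, with a median of 4.31 RPKM. They were led by Idh3b at 16.4, Idh3g at 9.45 and Idh1 at 9.17 RPKM.

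Germline genes, several of which are known to be kept silent in the body by promoter methylation, were low. None of 12 reached 1 RPKM, against 31.6% of protein-coding genes, and the germline median was 0.00623 RPKM. Per kilobase of exon 1 of the 12, Brdt, reached 1, at 1.20, against 54.1% of protein-coding genes. The germline median was then 0.0472. Brdt stood at 0.110 RPKM, Dazl at 0.0415 and Tdrd1 at 0.0348 RPKM, while Asz1, Hormad1, Mael and Tex101 were listed at 0. All 15 genes of dividing cells reached 1 RPKM, with a median of 2.84 RPKM, led by Mcm7 at 14.8, Rrm2 at 9.56 and Mki67 at 6.02 RPKM.

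**Figure D4:**
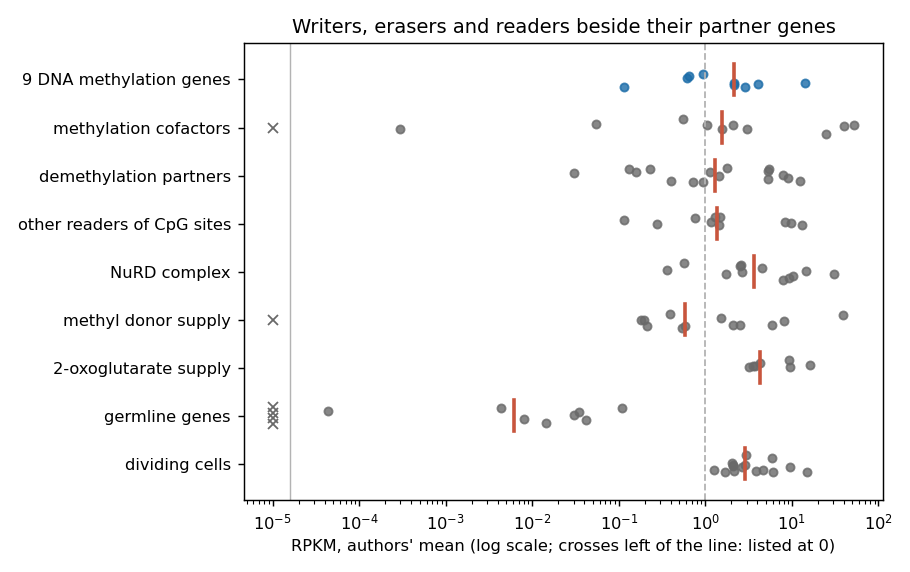
Deposited RPKM of the 9 genes and of each list of partner genes on a log axis, with the median as a red bar, 1 RPKM as a dashed line and genes listed at 0 as crosses left of the thin line. The 9 genes have a median of 2.13 RPKM and the germline genes one of 0.00623 RPKM.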

How the data were processed

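RNA of 3 E16.5 cortex libraries was measured by TruSeq sequencing on an Illumina HiSeq, per the labels' protocols. The authors deposited 1 mean RPKM per gene, per the file headers. The build mm9 (NCBIM37) and the tools HTSeq 0.6.0, DESeq 1.16.0, Cuffdiff 2.0.2, TopHat2 2.0.9 and Bowtie2 2.1.0 are named with no role, per the submitters' processing notes. Those sources give neither strand, nor the treatment of multiply mapped reads, nor whether the libraries came from separate animals.

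Symbols, spans and exon lengths came from GENCODE M21 on a later build, so only promoter windows carry coordinates. The worth of 1 read in each library was the narrow peak (0.5% tolerance) of RPKM times span between 0.004 and 0.0075 RPM. It was found in 9491 multi-exon genes, checked in 9491 others and tested on simulated data. Estimated reads are RPM times 187.7 M. Spans may differ from the authors' own, which reads and levels per exon would follow. Exon length is the union of all exons. Ratio intervals are exact (Clopper-Pearson, 95%).

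The text names all 9 genes, the 3 highest and the lowest of each partner list (all genes tied at 0), and the highest and lowest of each marker list. The lowest genes of 3 of these lists are not reported here. Genes and lists were chosen with earlier results of these data known. Alternatives were length scale, limit, pseudocount, filter and background. Values per longest coding transcript and with RefSeq spans were added after seeing the data. Single replicates could not be left out. Python 3.11.15, pandas 2.3.3 and SciPy 1.17.1 were used.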

Additional observations from a re-analysis of the deposited data

How the results depend on the processing

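Of the 9 genes, 5 reached 1 RPKM, 5 reached 2 RPKM and 8 reached 0.5 RPKM. At 1 per kilobase of exon 8 did, and at 1 per kilobase of the longest coding transcript all 9 did. Among protein-coding genes 31.6% reached 1 RPKM and 54.1% reached 1 per kilobase of exon. Per kilobase of the longest coding transcript 11347 of 17122 protein-coding genes above 0 reached 1. No such share was worked out at 0.5 or 2 RPKM. Over protein-coding genes above 0 the median was 0.4501 RPKM and the upper quartile 2.01 RPKM. The median of the 9 genes, 2.13 RPKM, became 6.52 per kilobase of exon, 11.1 per kilobase of the longest coding transcript and 64.2 RPM with no length. As a mean of logs it was 1.48, 1.58 and 1.95 RPKM with pseudocounts of 0.01, 0.1 and 1. Dnmt3a over Dnmt3b, 8.26 as deposited, was 7.18 per kilobase of exon, 7.46 with RefSeq spans, 10.4 per longest coding transcript and 23.4 with no length, and 7.67, 4.86 and 1.74 with those pseudocounts. Tet2 over Tet1 turned from 1.04 to 0.743 per kilobase of exon, 0.811 with no length and 0.936 with RefSeq spans. Of 55 alternatives over 7 ratios those 3 turned the direction. The pseudocounts and the filter among the 55 cannot turn a direction, so only the length scales could. With genes under 0.5 RPKM left out, Dnmt3a over Dnmt3b could not be given. Of 24 alternative counts over the partner lists 21 stayed within 1.5 times. The others were 3 of the other readers at 2 RPKM against 7 at 1 RPKM, and, per kilobase of exon against RPKM, 11 against 6 methyl donor genes and 1 against 0 germline genes. All 3 libraries enter 1 mean, so the spread between them was not tested, and depth limits only genes of a few reads, such as Dnmt3l.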
